A study of Mus musculus with 12 samples.

Results

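The genes described here are 39 genes of the extracellular matrix and the basement membrane, followed through all 12 libraries of a study of cultured mouse microglia. They were chosen by symbol, and each was found in the deposited table under a single Ensembl identifier, so they make up 39 of its 48623 genes. Microglia, which are the macrophages resident in brain, were grown from newborn C57BL/6J pups that were either wild type (WT) or homozygous for a *Trem2* R47H knock-in allele (KI), a substitution in a lipid-sensing receptor of microglia that is a risk variant for Alzheimer's disease in people. There were 3 WT cultures (T13, T33, T43) and 3 KI cultures (T15, T22, T32), always listed in this order, and each culture gave an untreated library and a library taken after 48 h with 20 ng/ml of interleukin-4 (IL-4), a cytokine that moves macrophages to an anti-inflammatory state. The 4 groups of 3 libraries are therefore WT untreated, WT with IL-4, KI untreated and KI with IL-4. All cells came from mixed glia of cortex and hippocampus kept for 19 to 23 days, from which microglia were obtained by trypsin removal of the astrocyte layer. Per the study, the WT cultures for sequencing came from littermates of the knock-in line, whose pups were grown as separate cultures, although the labels do not say which cultures shared a litter. This knock-in line also has less *Trem2* RNA than WT, so the R47H protein and a low *Trem2* level cannot be told apart.

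The extracellular matrix is the protein scaffold that cells secrete around themselves. Fibrillar collagens form its cables, whereas type IV collagen, laminins, nidogens and perlecan form the basement membrane, the thin sheet under endothelium and around the brain surface. Matricellular proteins such as SPARC, thrombospondins, tenascin-C and periostin sit in the matrix and tune how cells attach to it. In the brain most of this scaffold is attributed to fibroblasts, mural cells, endothelial cells and astrocytes, and macrophages are known mainly for breaking it down, although they also secrete fibronectin and some matricellular proteins.

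The values are TPM, a transcript abundance. A gene's reads are divided by its transcript length and the library is scaled to a fixed total. Levels can be compared between genes, but between libraries they are shares that also depend on what other genes take. The 10 most abundant genes took between 20.5% and 33.1% of a library. The number of reads behind a value cannot be read from this unit, and a gene with a value of 0 is described only as listed at 0. Between 20750 and 23945 genes were above 0 per library. *Trem2*, the edited gene, was between 1190 and 1886 TPM in the 6 WT libraries and between 325 and 770 TPM in the 6 KI libraries, which did not overlap (averaged log2 difference -1.43 ± 0.19 SE, limma adjusted p = 0.00763). Among markers of microglia, *Csf1r*, the receptor for their growth factor, was between 307 and 951 TPM in all libraries. Some libraries stood apart. Both libraries of KI culture T15 held between 3703 and 4828 summed TPM of 12 astrocyte markers, against 168 to 699 in the other 10 libraries, and the IL-4 library of WT culture T43 stood apart from its untreated partner in collagen genes, as described below. Results are given with and without these libraries. In RNA from whole cultures, fewer cells of a type and less RNA per cell cannot be told apart.

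The 39 genes together took between 248 and 2540 TPM in a library. The WT untreated libraries had 735 TPM in T13, 317 in T33 and 248 in T43, and the KI untreated libraries had 2540 in T15, 1330 in T22 and 1575 in T32. The untreated genotypes did not overlap in this sum. With IL-4 the sums were 756, 487 and 1179 TPM in WT and 2301, 1525 and 860 TPM in KI, and here WT T43 was above KI T32. A single gene, *Sparc*, made up between 21.9% and 66.4% of the summed TPM, and its smallest share was in the IL-4 library of T43. Without *Sparc*, the sum was between 147 and 348 TPM in WT untreated and between 582 and 964 TPM in KI untreated libraries, again with no overlap. With IL-4 it was 921 TPM in WT T43, close to the 955 TPM of KI T15.

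**Figure D1:**
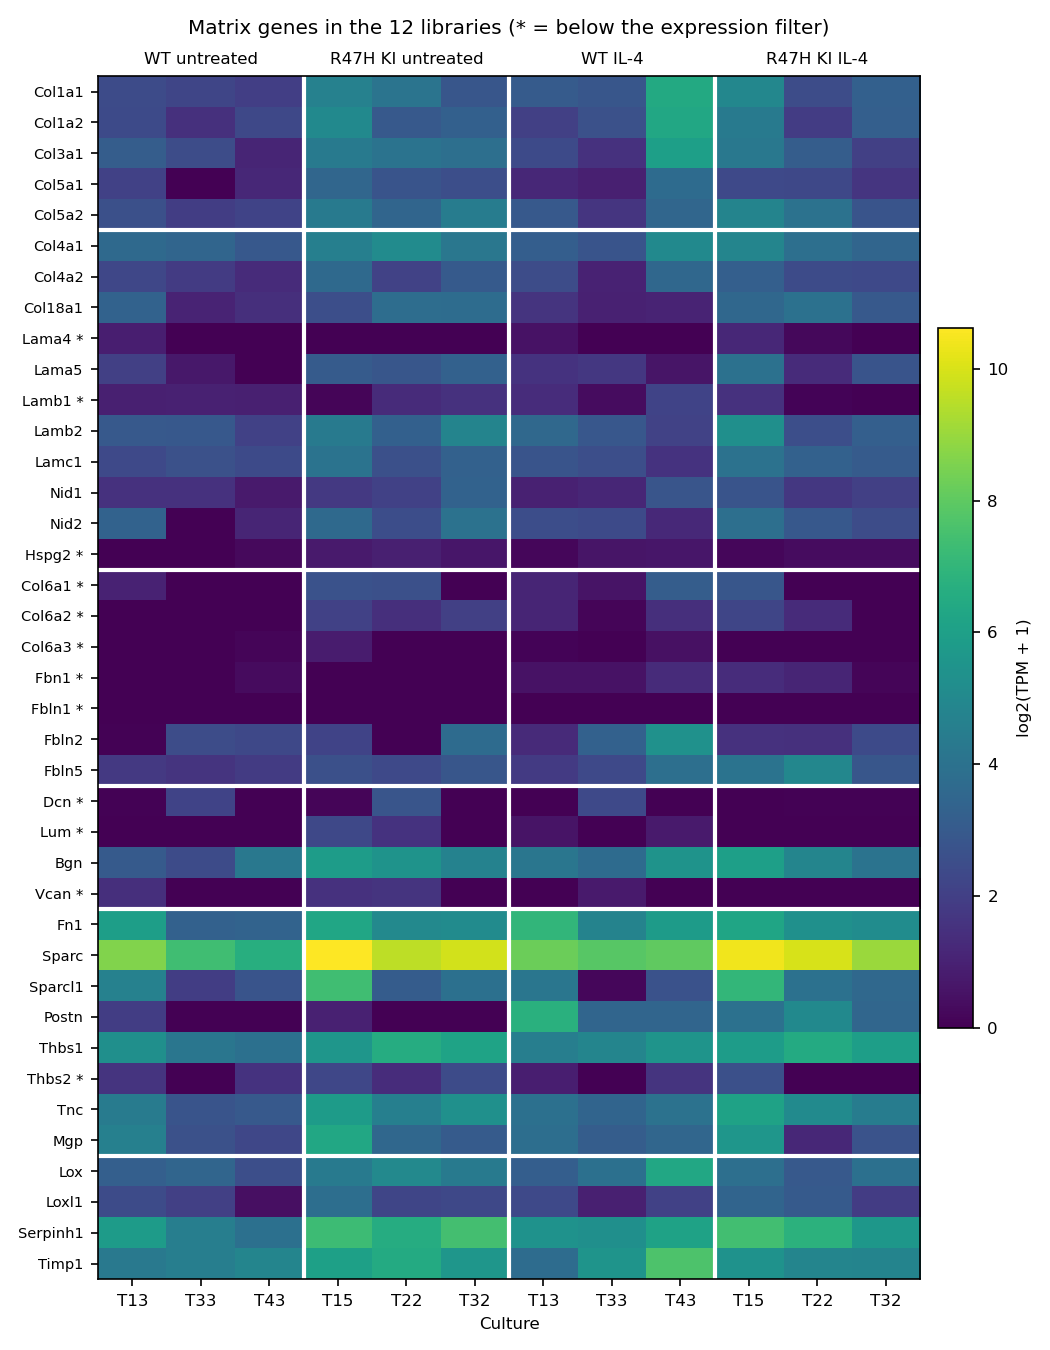
Level of the 39 matrix genes (rows, ordered by role, white lines between roles) in the 12 libraries (columns, by group and culture) as log2(TPM + 1). *Sparc* is the brightest row in every column, *Col1a1*, *Col1a2* and *Col3a1* are brightest in the IL-4 library of WT culture T43, and the 12 genes marked with an asterisk were under the limit for testing.

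Of the 39 genes, 27 had a mean log2(TPM + 1) above 1.5 and could be tested together with all other genes that passed this limit, 11204 in total. Just inside the limit were *Nid1* at a mean of 1.87 and *Lama5* at 1.98 on this scale, and just outside it were *Thbs2* at 1.20 and *Col6a1* at 1.16. Genotype was tested with limma's moderated F-test over the genotype term and its interaction with IL-4, and the differences given are averages over both treatments on the log2(TPM + 1) scale. At an adjusted p below 0.05, 3 of the 27 matrix genes were higher in KI and 0 were lower. Over all genes tested 1.29% were called higher and 0.357% lower, so the share among the matrix genes, 11.1%, was above the background. The 3 genes were *Sparc*, *Thbs1* and *Serpinh1*.

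*Sparc* encodes a collagen-binding glycoprotein that takes part in matrix assembly (chr11:55394500-55423183 on the minus strand, GRCm38). Untreated, its level was 387 TPM in T13, 164 in T33 and 101 in T43 of WT, and 1576 TPM in T15, 748 in T22 and 950 in T32 of KI. With IL-4 it was at 299.7, 233 and 258 TPM in WT and at 1346, 1012 and 519 TPM in KI. Every KI library was above every WT library, and T15 was the highest in both treatments. The group means were 217 ± 150 TPM (SD, n = 3) in WT and 1091 ± 432 TPM in KI without IL-4, a ratio of 5.02, and 264 ± 33.6 against 959 ± 416 TPM with IL-4, a ratio of 3.64. The averaged log2 difference was 2.12 ± 0.31 (SE, adjusted p = 0.0101 in limma) and 1.82 without culture T15 (adjusted p = 0.0394). Treating the culture as a random block gave an adjusted p of 0.0176. The call was lost without WT culture T33 or T43, where the adjusted p reached 0.118, and in the IL-4-treated libraries alone (adjusted p = 0.254).

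*Thbs1* encodes thrombospondin-1, a secreted glycoprotein that activates latent TGF-beta and binds the cell surface receptors CD36 and CD47 (chr2:118111876-118127133, plus strand). Its untreated WT levels were 37.7, 16.9 and 14.2 TPM, and its untreated KI levels were 47.3, 94.4 and 71.6 TPM. With IL-4 they were 22.3, 27.1 and 44.1 TPM in WT and 57.7, 88.2 and 60.4 TPM in KI. The genotypes did not overlap in either treatment, and T22 rather than T15 was the highest KI culture. The averaged difference was 1.41 ± 0.26 (SE, limma adjusted p = 0.0369) and 1.59 without T15, where the adjusted p was 0.0530. With the culture as a random block the adjusted p was 0.0756 in the F-test and 0.0274 in a test of the averaged difference alone.

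*Serpinh1* encodes HSP47, the chaperone of the endoplasmic reticulum that folds procollagen (chr7:99345376-99353239, minus strand). Levels without IL-4 were 56.4, 22.4 and 14.1 TPM in WT, and 154.6, 93.7 and 174 TPM in KI. With IL-4 the WT cultures were at 41.6, 37.6 and 69.3 TPM and the KI cultures at 167, 111 and 48.2 TPM. The untreated genotypes did not overlap, but with IL-4 KI T32 was below WT T43. The averaged difference was 1.66 ± 0.35 (SE, limma adjusted p = 0.0417). It was no longer past the threshold with the culture as a random block (adjusted p = 0.0819) or without T15 (adjusted p = 0.122).

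The sequence before the annotated start of *Serpinh1* is shown because it is a called gene whose RefSeq and GENCODE starts coincide, with a GC box (GGGCGG, the core bound by Sp1) in capitals. It spans chr7:99353240-99353489 on the minus strand of GRCm38.p6 and comes from RefSeq.
Serpinh1: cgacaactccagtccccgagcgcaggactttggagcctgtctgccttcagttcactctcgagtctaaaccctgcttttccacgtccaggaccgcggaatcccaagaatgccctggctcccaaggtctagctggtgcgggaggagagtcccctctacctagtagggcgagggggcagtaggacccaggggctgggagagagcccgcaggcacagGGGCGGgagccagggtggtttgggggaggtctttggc
RefSeq windows of this kind, searched over the 250 bases before a start, were at hand for 26 of the 39 genes. Some genes had several starts, which made 32 windows in all. On either strand, GGGCGG occurred in 20 of the 32 windows, from 18 genes, and in 32.7% of all 32851 windows. CCAAT was found in 10 of the 32 windows and in 33.8% of all windows, and TGANTCA, the AP-1 core, in 1 of the 32 (*Col6a1*) and in 6.75% of all windows. A match describes letters and is not evidence of binding.

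**Figure D2:**
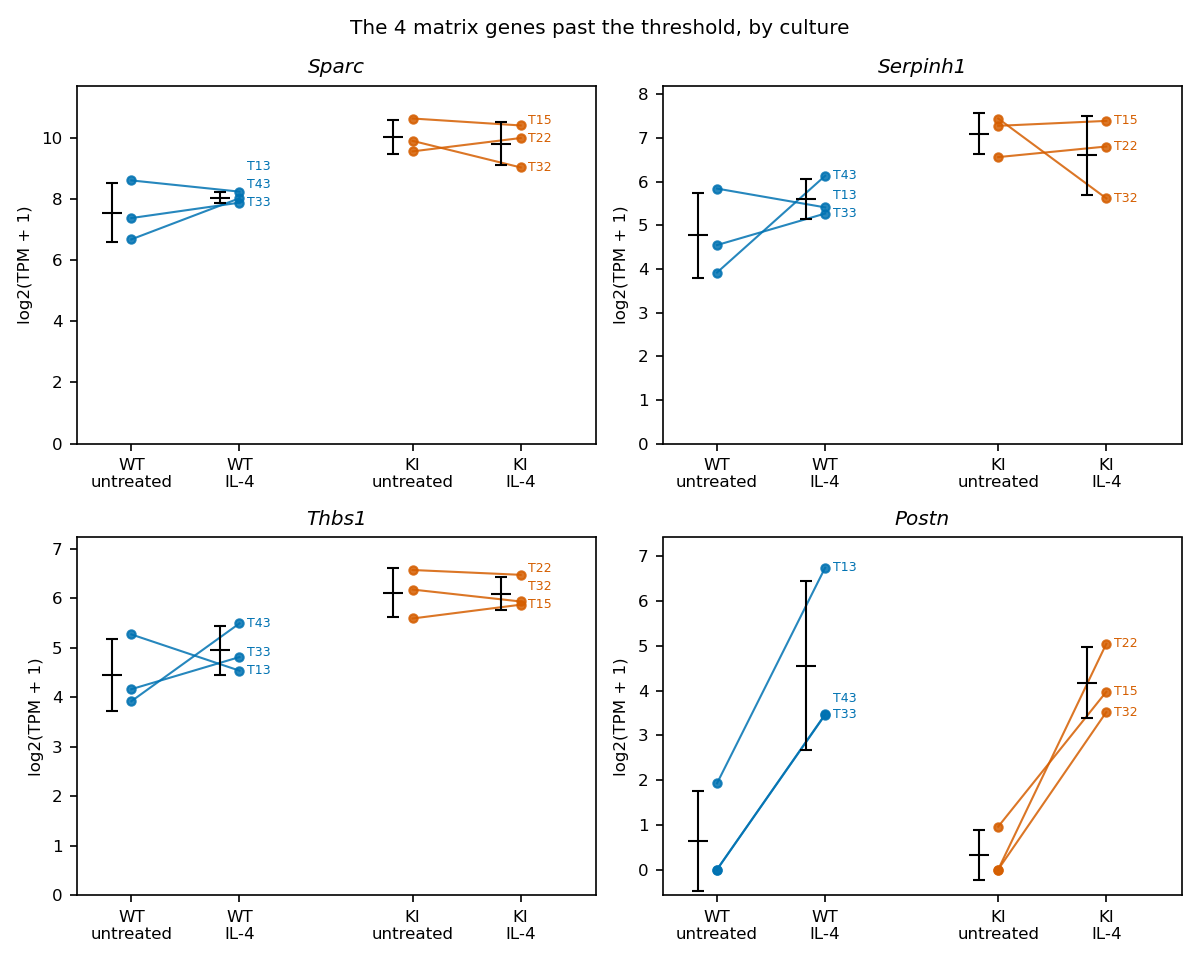
The 4 matrix genes past the threshold, as log2(TPM + 1) on the y axis, for each culture without and with IL-4 on the x axis (points, joined within a culture; blue WT, orange KI), with the group mean and SD in black. The KI points of *Sparc* and *Thbs1* are all above the WT points of the same treatment, 1 KI point of *Serpinh1* with IL-4 is not, and *Postn* is above its untreated value in each of the 6 cultures.

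Most of the other matrix genes were also higher in KI on average without passing the test. The averaged difference was above 0 for 25 of the 27 genes, against 63.1% of all genes tested, and its median was 1.01 over the matrix genes and 0.13 over all genes. *Lama5* and *Nid1* passed the expression limit only through their KI libraries, and among genes past the limit in each genotype on its own it was above 0 for 23 of 25, against 62.2% of all such genes. The exceptions were *Fbln2* at -0.59, or -0.08 without the IL-4 library of T43, and *Postn* at -0.35. At an unadjusted p below 0.05 in the limma F-test there were 10 of the 27 genes, against 16.1% of all genes. The 10 include *Lama5*, which the limit let in only through its KI libraries. The median over the matrix genes was 0.71 without culture T15 (23 of 27 above 0), 1.28 without the IL-4 library of T43 and 1.01 without both. With the culture as a random block in the F-test only *Sparc* was called, at a background of 0.5% called higher. A test of the averaged difference alone called 6 genes higher, adding *Tnc*, *Col18a1* and *Col5a2*, at a background of 3.95%. Leaving out WT culture T33 or T43 left 0 genes, where only 3 and 16 of all 11204 genes were called in either direction. Leaving out T15, T22 or T32 left only *Sparc*, where 49, 182 and 99 of all genes were called. Leaving out T13 left 5, where 191 of all genes were called.

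**Figure D3:**
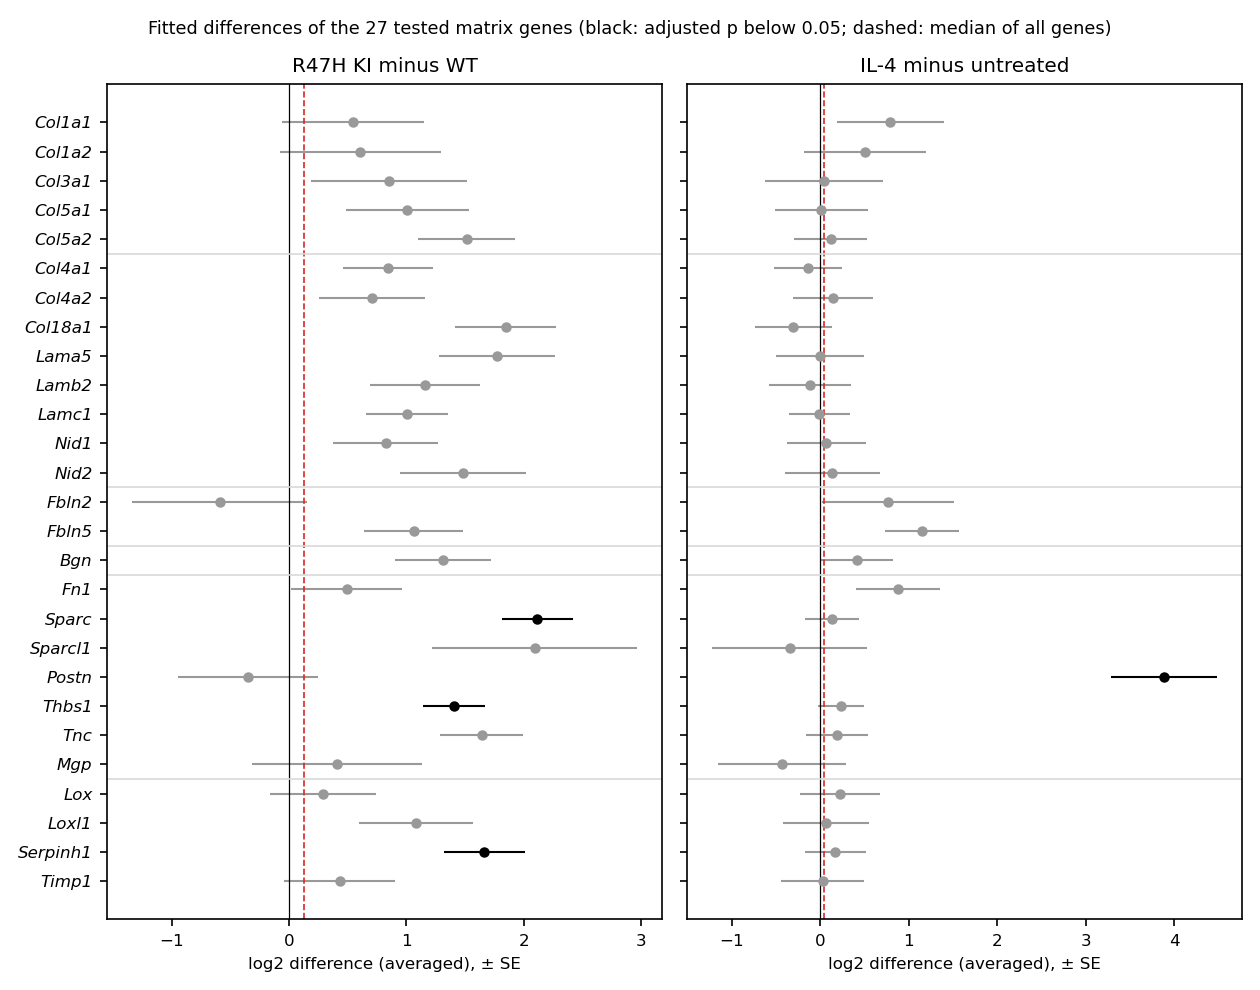
Averaged log2 difference with its SE for the 27 tested matrix genes, R47H KI minus WT on the left and IL-4 minus untreated on the right, ordered by role with grey lines between roles. Black points passed an adjusted p of 0.05 and the dashed line is the median of all genes; 25 of 27 points on the left lie above 0, and *Postn* stands apart on the right.

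Separation of the genotypes was also counted within each treatment. The difference was above 0 for 26 of the 27 genes without IL-4 (63.2% of all genes, median 1.497) and for 18 of the 27 with IL-4 (59.1% of all genes, median 0.52). Both counts include *Lama5* and *Nid1*, which passed the expression limit only through their KI libraries. Without IL-4, all 3 KI libraries were above all 3 WT libraries for 17 of the 27 genes, against 13.6% of all genes tested. Among genes past the limit in each genotype this was 15 of 25, against 1356 of all 10468 such genes. Setting aside T15, KI cultures T22 and T32 were both above all WT cultures for 18 of the 27 genes, against 19.8% of all genes. It was 16 of 25 among genes past the limit in each genotype, against 19.2% of all such genes. With IL-4 the KI libraries were above the WT libraries for 5 genes, *Col18a1*, *Lamc1*, *Sparc*, *Thbs1* and *Tnc*, against a background of 12.7%. Setting aside the IL-4 library of T43 they were above for 10 genes, against 16.8%. Restricted to genes past the limit in each genotype, this was 9 of 25, against 16.1%. Genes that separated in both treatments were *Sparc*, *Thbs1* and *Tnc*, 3 of 27 at a background of 3.7%. No matrix gene had all KI libraries below all WT libraries in either treatment, where the backgrounds were 4.55% and 5.79%. Tested in untreated cultures alone, *Sparc* and *Serpinh1* were called higher (background 0.705%). In IL-4-treated cultures alone 0 matrix genes were called (background 0.00893%), with 5 of 27 at an unadjusted p below 0.05, against 10.3% of all genes. Whether the genotype difference itself depended on IL-4 was tested by the interaction, which no matrix gene passed, as given below.

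By role, the fibrillar collagens had a median averaged difference of 0.85, with all 5 above 0 and 0 of 5 past the threshold (adjusted p between 0.136 and 0.588 in limma). This median was 1.45 without the IL-4 library of T43, and 0.50 with 4 of 5 above 0 without T15. *Col1a1*, a chain of type I collagen and the most abundant of the group, had untreated levels of 4.43, 3.61 and 2.93 TPM in WT, and of 24.3, 16.0 and 6.14 TPM in KI. These groups did not overlap, with a KI to WT ratio of means of 4.24. Its averaged difference over both treatments was nevertheless 0.54 ± 0.60 (SE, adjusted p = 0.511), 0.01 without T15 and 1.13 without the IL-4 library of T43, so that the WT and KI libraries that stood apart pulled it in opposite directions. *Col5a2*, a chain of type V collagen that sets fibril width, was between 2.77 and 5.06 TPM in WT and between 9.99 and 20.8 TPM in KI untreated cultures. It had the largest averaged difference of the fibrillar collagens at 1.52 ± 0.41 (SE, adjusted p = 0.136).

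The basement membrane genes that were tested numbered 8 of 11, and all 8 had averaged differences above 0 with a median of 1.08. Over all genes 63.1% were above 0, and *Lama5* and *Nid1* of the 8 passed the expression limit only through their KI libraries. None passed the threshold in the F-test, whose adjusted p was between 0.0806 and 0.591. At an unadjusted p below 0.05 were 4 of the 8, *Lama5* among them, against 16.1% of all genes. *Col4a1*, a chain of the collagen network and the most abundant of them, had untreated levels of 11.4, 9.92 and 6.57 TPM in WT, and of 23.3, 33.5 and 17.5 TPM in KI. The untreated groups did not overlap, but with IL-4 the WT cultures were at 8.08, 5.79 and 31.9 TPM and the KI cultures at 27.3, 13.6 and 9.90 TPM, and T43 was above all of them (averaged difference 0.85 ± 0.38 SE, adjusted p = 0.370). Its partner chain *Col4a2* lies head to head with it, and the annotated ends of both genes overlap by 22 bases at chr8:11312805-11312826. The partner was lower, between 1.05 and 11.3 TPM over all libraries.

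*Col18a1*, the core protein of a basement membrane collagen whose end fragment is endostatin, came closest to the threshold in this group. Its untreated levels were 8.997, 1.09 and 1.71 TPM in WT, with 4.83, 12.8 and 12.4 TPM in KI, and it was at 2.02, 0.987 and 1.06 TPM against 10.6, 14.6 and 6.81 TPM with IL-4. The genotypes overlapped without IL-4 through WT T13 and KI T15, and not with IL-4 (averaged difference 1.85 ± 0.43 SE, limma adjusted p = 0.0806). Of the laminin chains, *Lama5* was between 0 and 3.01 TPM in WT and between 6.24 and 8.88 TPM in KI untreated cultures, and *Lamb2* was between 3.12 and 6.79 TPM and between 8.69 and 26.7 TPM. *Lamc1*, the shared gamma chain, was between 4.05 and 5.22 TPM in WT and between 5.00 and 15.5 TPM in KI untreated cultures, which overlapped. The nidogens *Nid1* and *Nid2*, which link laminin to type IV collagen, reached at most 9.24 and 15.3 TPM, both in untreated KI T32.

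Among filament and elastic-fibre genes, *Fbln5*, an elastic-fibre assembly protein, had an averaged genotype difference of 1.06 ± 0.42 (SE, limma adjusted p = 0.358). It was between 2.05 and 2.57 TPM in WT and between 4.15 and 6.19 TPM in KI untreated cultures, which did not overlap. *Bgn*, the small proteoglycan biglycan, was the only one of 4 proteoglycans tested. Untreated levels were 7.06, 4.38 and 17.998 TPM in WT, and 57.2, 42.3 and 25.4 TPM in KI, with no overlap. Its averaged difference was 1.31 ± 0.41 (SE, adjusted p = 0.141).

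In the matricellular group, *Tnc*, or tenascin-C, an adhesion-modulating glycoprotein made by astrocytes and fibroblasts, followed *Sparc*. Without IL-4 its levels were 20.4, 5.77 and 6.77 TPM in WT, and 56.2, 22.8 and 39.3 TPM in KI. With IL-4 it was at 14.4, 9.77 and 15.3 TPM against 67.8, 32.6 and 21.1 TPM. The genotypes were apart in both treatments, but the difference of 1.64 ± 0.35 (SE) did not pass the F-test (limma adjusted p = 0.0617). *Sparcl1*, a relative of *Sparc* known as hevin and abundant in astrocytes, had nearly as large an averaged difference, 2.09 ± 0.87 (SE, adjusted p = 0.387), but it rested on T15. It was at 165 and 130 TPM in the libraries of T15 and between 0.136 and 24.6 TPM in the other 10 libraries, and without T15 its difference was 0.91.

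*Mgp*, an inhibitor of calcification, was likewise highest in T15 at 81.0 TPM untreated and 47.5 TPM with IL-4, and was between 1.29 and 24.0 TPM elsewhere. *Fn1*, fibronectin, had untreated levels of 60.7, 8.78 and 9.37 TPM in WT, and of 76.0, 31.2 and 34.3 TPM in KI. WT T13 lay among the KI cultures, and the averaged genotype difference was 0.49 ± 0.48 (SE, limma adjusted p = 0.550), and 0.13 without T15. In the group of enzymes and inhibitors, *Lox*, the lysyl oxidase that crosslinks collagen, was between 4.87 and 10.0 TPM in WT and between 19.1 and 30.6 TPM in KI untreated cultures. *Timp1*, an inhibitor of matrix metalloproteinases, was between 18.5 and 27.5 TPM and between 47.2 and 88.8 TPM. Both were separate without IL-4 and overlapped with it, with averaged differences of 0.29 ± 0.45 and 0.43 ± 0.47 (SE). Without the IL-4 library of T43 these were 0.76 for *Lox* and 0.93 for *Timp1* (limma adjusted p = 0.241 and 0.209).

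The IL-4 comparison used the same 12 libraries, without a term for the culture. At an adjusted p below 0.05 in limma's F-test over IL-4 and the interaction, 1 of the 27 matrix genes was higher with IL-4 and 0 were lower, against 0.75% and 0.143% of all genes tested. With the culture as a fixed block, which compares the libraries of a culture with each other, 2 of the 27 genes were called higher, *Postn* and *Fn1*, against 1.79% of all genes. The gene called in both fits was *Postn*, which encodes periostin, a matricellular protein that is a known IL-4 and IL-13 target in epithelium and fibroblasts (chr3:54361109-54391037, plus strand). Untreated, it was at 2.80 TPM in WT T13 and 0.942 TPM in KI T15 and was listed at 0 in the other 4 cultures. With IL-4 it was at 106 TPM in T13, 10.0 in T33 and 10.1 in T43, and at 14.7 TPM in T15, 32.02 in T22 and 10.5 in T32. Every IL-4 library was above every untreated library, in both genotypes. The averaged difference was 3.89 ± 0.60 (SE, adjusted p = 0.0129) and the interaction was -0.06 ± 1.19 (SE, adjusted p = 1.00). The difference was also past the threshold with the culture as a fixed block (adjusted p = 0.000452), but not without T22, T32, T33 or T43, where the adjusted p reached 0.0759. Its mean level was low, 2.42 on the log2(TPM + 1) scale, and *Postn* passed the limit of 1.5 only through the IL-4 libraries in which it was high, so nothing is read from that count against the share of all genes. It was not tested when the limit was raised to 3. With untreated values at 0 the size of the difference is set by the pseudocount, and it was 6.23 with a pseudocount of 0.1.

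The sequence before the RefSeq start of *Postn* nearest to the GENCODE start, 2 bases apart from it, is shown because *Postn* was the IL-4 call. It spans chr3:54360857-54361106 on the plus strand of GRCm38.p6, and the capitals mark a TATA box (TATAAA).
Postn: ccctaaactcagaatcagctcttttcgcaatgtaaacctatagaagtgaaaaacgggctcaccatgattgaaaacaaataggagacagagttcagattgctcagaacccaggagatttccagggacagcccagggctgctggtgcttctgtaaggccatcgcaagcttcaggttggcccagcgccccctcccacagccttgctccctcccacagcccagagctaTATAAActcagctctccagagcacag
TATAAA on either strand was found in 5 of the 32 windows of matrix genes, from *Postn*, *Tnc*, *Col3a1* and *Thbs2*, and in 12.4% of all windows. The palindromes bound by STAT proteins were also searched. TTC and GAA with 4 bases between, the form preferred by STAT6, was found in 1 of the 32 windows (*Bgn*), against 5.85% of all windows. The form with 3 bases between was found in 1 of the 32 (*Lamb2*), against 7.02% of all windows. These letters were not in this window of *Postn*, which says nothing of more distant sites.

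For *Fbln5* and *Fn1* the IL-4 values varied between cultures. *Fbln5* and *Postn* were above their untreated partner in each of the 6 cultures, which makes 2 of the 27 genes against 5.73% of all genes tested. Among genes past the limit with and without IL-4 it was *Fbln5* alone, 1 of 26 against 5.59%. *Fbln5* went from 2.38 to 2.52, from 2.05 to 4.12 and from 2.57 to 13.9 TPM in WT cultures T13, T33 and T43, and from 5.02 to 15.6, from 4.15 to 29.4 and from 6.19 to 6.26 TPM in KI cultures T15, T22 and T32. The size of the difference varied from nearly none in T13 and T32 to a ratio of 7.08 in T22, and it was not past the threshold (1.15 ± 0.42 SE, limma adjusted p = 0.675). *Fn1* went from 60.7 to 128, from 8.78 to 26.3 and from 9.37 to 55.4 TPM in the WT cultures T13, T33 and T43. In the KI cultures T15, T22 and T32 it went from 76.0 to 74.0, from 31.2 to 38.96 and from 34.3 to 35.4 TPM. It was higher in 5 of 6 cultures, with the larger steps in WT. The averaged IL-4 difference of *Fn1* was 0.88 ± 0.48 (SE, adjusted p = 0.770) and was called with the culture as a fixed block (adjusted p = 0.0146). Its interaction was -1.56 and was not past the threshold in either fit (adjusted p = 1.00, and 0.817 with the block).

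The other matrix genes had no common direction with IL-4 once a single library was set aside. Over the 27 genes the IL-4 difference was above 0 for 21, against 55.8% of all genes, with a median of 0.14 against 0.04. Among genes past the limit both with and without IL-4, which leaves out *Postn*, it was 20 of 26, against 55.7%. Without the IL-4 library of T43 the difference was above 0 for 14 of 27, *Postn* among them, against 6282 of all 11204 genes. The median was then 0.04, against 0.05 over all genes. No tested matrix gene had its IL-4 value below the untreated one in each of the 6 cultures, where the background was 2.51%. The 8 basement membrane genes had a median of -0.003, with 4 above 0, and without T15 a median of -0.28, with 3 above 0.

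The IL-4 library of WT culture T43 was the highest of the 12 libraries for 7 of the 27 genes, *Col1a1*, *Col1a2*, *Col3a1*, *Col5a1*, *Fbln2*, *Lox* and *Timp1*, against 4.72% of all genes tested. T43 also had the largest IL-4 response of the 6 cultures for 18 of the 27 genes, against 19.0% of all genes. *Col1a1* went from 2.93 to 85.9 TPM in T43, a ratio of 29.4, while the ratios in the other 5 cultures were between 0.287 and 1.73. *Col1a2*, the partner chain of type I collagen, went from 3.94 to 81.7 TPM, a ratio of 20.8, against 0.401 to 2.91 elsewhere. *Col3a1*, type III collagen, went from 1.14 to 63.7 TPM, a ratio of 55.7, and was lower with IL-4 in the other 5 cultures. *Lox* went from 4.87 to 82.5 TPM and *Timp1* from 27.5 to 199.8 TPM. *Fbln2*, fibulin-2, went from 4.002 to 40.2 TPM, and its next highest level was 12.1 TPM in untreated KI T32.

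The 5 fibrillar collagens summed to 12.7 TPM in T43 without IL-4 and 254 TPM with it, and to between 16.3 and 97.7 TPM in the other 5 IL-4 libraries. Of the genes called for genotype, *Sparc* was at 258 TPM there, between the 233 and 299.7 TPM of the other WT cultures with IL-4. *Serpinh1* went from 14.1 to 69.3 TPM and *Thbs1* from 14.2 to 44.1 TPM in T43, in both cases to the highest level of the 6 WT libraries. Basement membrane genes differed among themselves in this library. *Col4a1* at 31.9 TPM was higher than in the other 5 IL-4 libraries, whereas *Col18a1* and *Lamc1* were at 1.06 and 1.93 TPM, near or at their lowest. *Crabp2*, a retinoid-binding protein of dermal and meningeal fibroblasts, was at 14.3 TPM in this library, at 0.563 TPM in untreated T33 and listed at 0 in the other 10. The 15 fibroblast markers apart from *Igfbp2*, with *Crabp2* among them, summed to 31.8 TPM, against 6.4 TPM in untreated T43. This was the highest of the WT libraries, close to 29.8 TPM in T13 with IL-4. The KI libraries held 33.3 to 127 TPM. With *Igfbp2* included, the 16 markers summed to 267 TPM in this library of T43, against 226 to 822 TPM in the other WT libraries. *Cdh11*, a mesenchymal cadherin, went from 0.0183 to 6.88 TPM in T43, while *Islr* was at its lowest there, 0.849 TPM. The mural markers summed to 436 TPM, against 149 to 339 in the other WT libraries. The part of these cells in the collagen values was not tested.

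**Figure D4:**
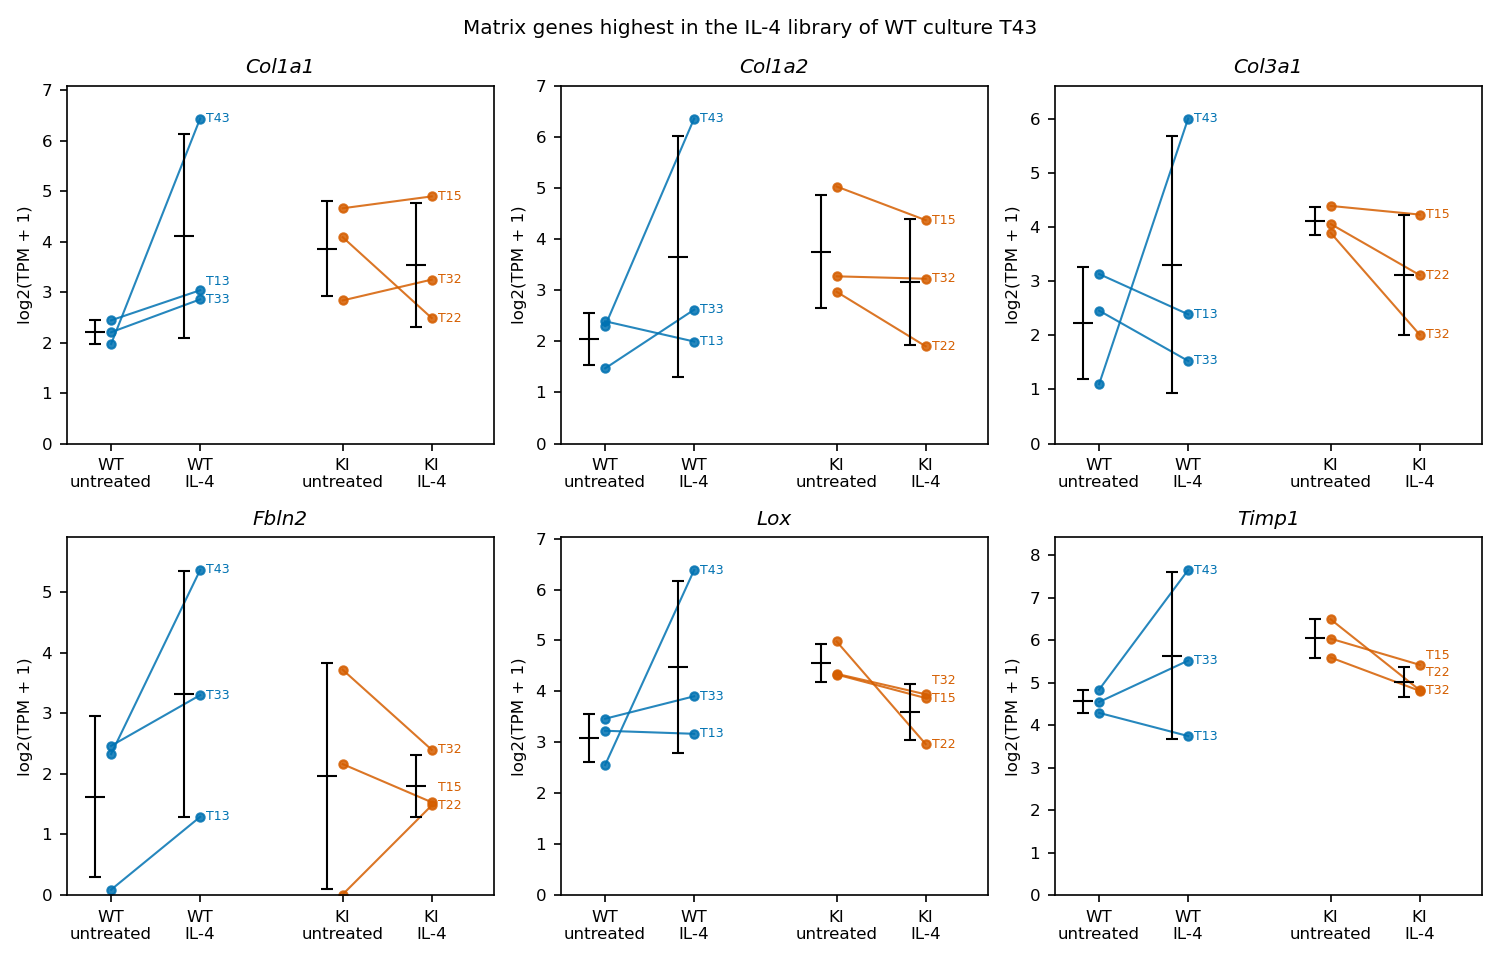
The 6 matrix genes whose highest value was in the IL-4 library of WT culture T43 with a TPM of 40 or more, as log2(TPM + 1) on the y axis, without and with IL-4 on the x axis (points joined within a culture, blue WT, orange KI, group mean and SD in black). The T43 line ends highest in every panel, and no other library reaches its IL-4 value.

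For the interaction, the difference of the IL-4 response between genotypes, 0 of 27 matrix genes passed the threshold in limma, as did 0.0% of all 11204 genes tested. In simulated data this test recovered only 31.5% of genes with an interaction of 2 on the log2 scale, so the count of 0 says little. At an unadjusted p below 0.05 there were 2 of 27, *Lox* and *Timp1*, against 3.19% of all genes. *Lox* was higher with IL-4 in WT T33 and T43 and lower in T13 and in all 3 KI cultures, with an interaction of -2.36 ± 0.91 (SE, unadjusted p = 0.0208, adjusted p = 1.00). Without the IL-4 library of T43 the interaction of *Lox* was -1.41, and that of *Timp1* went from -2.10 to -1.10. The interaction was below 0 for 23 of the 27 genes, with a median of -0.82 against -0.07 over all genes and 43.8% of all genes above 0. Without that library the median was -0.73, with 4 of 27 above 0, and without T15 it was -1.33, with 6 of 27 above 0. Without the T43 library the median of the 5 fibrillar collagens went from -2.08 to -0.81.

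Other markers moved with genotype alongside the matrix genes. The 12 mural markers, of smooth muscle and pericytes, summed to between 149 and 339 TPM in untreated WT and between 1094 and 1421 TPM in untreated KI cultures, and to between 234 and 436 TPM against 724 and 1284 TPM with IL-4. Of the 4 mural markers tested, the contractile genes *Acta2*, *Tagln* and *Cnn1* were called higher in KI, at 2.11 ± 0.23, 1.93 ± 0.26 and 1.93 ± 0.34 (SE, limma adjusted p = 0.00296, 0.00626 and 0.0305). The fourth, the pericyte proteoglycan *Cspg4*, had a difference in the other direction that did not pass (-1.50 ± 0.53 SE, adjusted p = 0.287). The defining mural markers *Kcnj8* and *Higd1b* were listed at 0 in every library, and *Myh11*, *Abcc9* and *Rgs5* never exceeded 0.790 TPM. Of the 16 fibroblast and leptomeningeal markers, 5 were tested and 2 were called higher, *Igfbp2* at 2.28 ± 0.29 and *Cdh11* at 2.13 ± 0.44 (SE, adjusted p = 0.00597 and 0.0407), while *Dpt*, *Slc6a13*, *Slc22a6* and *Slc47a1* never exceeded 0.321 TPM.

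The 12 endothelial markers summed to between 19.5 and 29.1 TPM without IL-4 and between 61.4 and 142 TPM with it, most of it *Flt1*, while *Cldn5*, *Tek* and *Emcn* were listed at 0 in every library. Of the 12 astrocyte markers 10 were tested and 0 were called, with a median difference of 1.57, and outside T15 the KI libraries held between 221 and 654 TPM of them and the WT libraries between 168 and 699 TPM. The 18 microglial markers summed to between 38149 and 38854 TPM in untreated WT and between 16370 and 32127 TPM in untreated KI cultures, lowest in T15, and 6 of the 17 tested were called lower in KI, *Trem2* among them. Of the 10 markers of the oligodendrocyte lineage 7 were tested, with a median difference of 2.02 and 6 above 0, and *Olig1* was called higher in KI (2.69 ± 0.52 SE, adjusted p = 0.0438). These markers and those of neurons were highest in T15, at up to 601 and 76.7 summed TPM. The part of any of these cells in the matrix values was not tested.

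**Figure D5:**
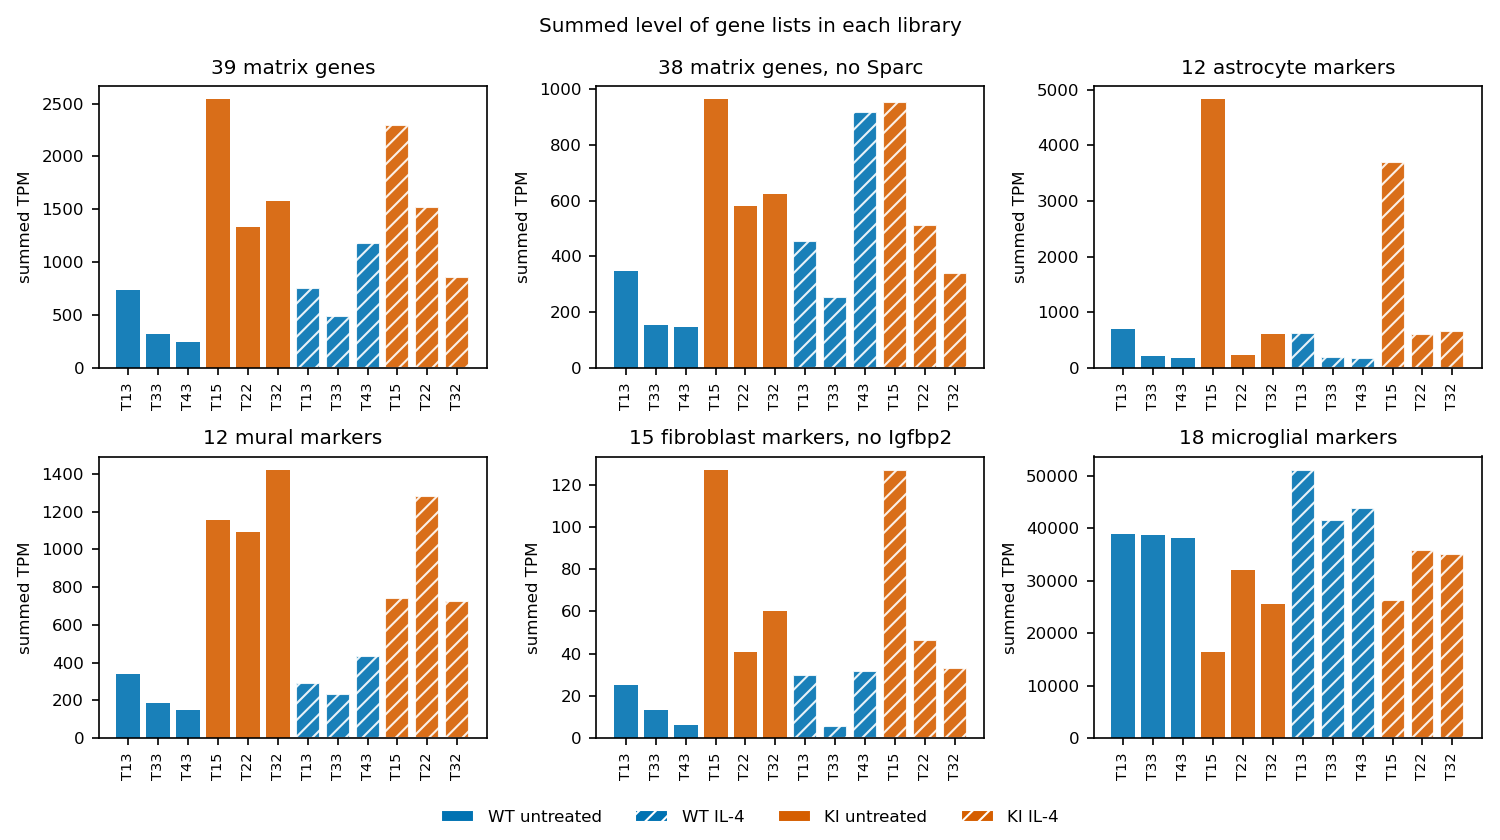
Summed TPM (y axis, from 0) of 6 gene lists in each of the 12 libraries (x axis, by culture; blue WT, orange KI, hatched with IL-4). The matrix sum is highest in KI culture T15, which also has the highest astrocyte sum at 4828 TPM; the mural sums of all KI libraries are above those of all WT libraries, and the microglial sum is lowest in T15.

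KI culture T15 held the highest library for 11 of the 27 genes, 6 without and 5 with IL-4, against 33.3% of all genes tested. These were *Col5a2*, *Col4a2*, *Lama5*, *Lamb2*, *Lamc1*, *Bgn*, *Sparc*, *Sparcl1*, *Tnc*, *Mgp* and *Loxl1*. Other KI cultures held the highest library for *Col4a1*, *Thbs1*, *Col18a1*, *Fbln5*, *Nid1*, *Nid2* and *Serpinh1*. The untreated WT libraries held it for none of the 27, against 4.81%, 8.25% and 2.35% of all genes in T13, T33 and T43. T13 with IL-4 held it for *Fn1* and *Postn*.

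The 12 matrix genes under the expression limit were at or below 7.67 TPM in all libraries. *Fbln1* was listed at 0 in all 12. *Col6a1*, *Col6a2* and *Col6a3*, which form the beaded filaments of type VI collagen, reached 7.67, 3.70 and 0.730 TPM. *Dcn* and *Lum*, the leucine-rich proteoglycans decorin and lumican that are abundant in fibroblasts, reached 5.96 and 3.94 TPM, and *Dcn* was above 0.12 TPM only in both libraries of T33 and in untreated T22. *Hspg2*, perlecan, reached 0.927 TPM, and the laminin chains *Lama4* and *Lamb1* reached 1.28 and 3.46 TPM. *Fbn1*, *Vcan* and *Thbs2* reached 1.53, 1.99 and 4.97 TPM.

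A wider list of 92 further matrix genes, of which 49 were tested, had 2 genes called higher and 0 lower in KI and 1 called higher and 1 lower with IL-4, where the background was 1.29% and 0.357% for genotype and 0.75% and 0.143% for IL-4. *Fmod*, fibromodulin, a small proteoglycan of collagen fibrils, was between 4.12 and 23.0 TPM in the WT and between 26.5 and 82.6 TPM in the KI libraries (2.38 ± 0.36 SE, limma adjusted p = 0.0142). *Col8a1*, a network collagen of vessel walls, was between 1.70 and 12.9 TPM in WT and between 13.1 and 31.4 TPM in KI (1.77 ± 0.35 SE, adjusted p = 0.0369). With IL-4, *Timp2* rose by 0.83 ± 0.11 (SE, adjusted p = 0.00303), from 234 to 376 TPM over untreated libraries to 504 to 622 TPM over IL-4 libraries. *Serpine2*, protease nexin-1, fell by 1.31 on the log2 scale (SE 0.23, adjusted p = 0.0337). The 5 genes outside the 39 whose log2(TPM + 1) most resembled the mean z-score of the 27 tested genes over the 12 libraries were *Cdh11* (Pearson r = 0.948), *Ext1* (0.944), *Ccn2* (0.941), *Col8a1* (0.932) and *Vcp* (0.931). These correlations describe libraries that share cultures and carry no test.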

How the data were processed

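Polyadenylated RNA of 12 libraries was amplified with SMART-Seq v4 and sequenced. After trimming with Trim Galore, the authors ran Salmon against GRCm38 and collapsed transcripts to genes with tximport, and the deposited values are TPM per gene and library. Versions of these tools are not given in the sources used here. The labels give only a nominal number of reads. TPM keeps no read counts, so the depth of each library is unknown and counting error could not be given. Gene symbols and coordinates came from GENCODE vM21 (GRCm38), and 48350 of the 48623 identifiers were named.

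TPM were put on the log2(TPM + 1) scale. Genes whose mean exceeded 1.5 on this scale (11204) were fitted with limma 3.58.1 (lmFit, eBayes with a variance trend) in R 4.3.3, with genotype, IL-4 and their interaction over all 12 libraries. P-values were adjusted by Benjamini-Hochberg across these genes, at a threshold of 0.05. The study's own test used read counts, which were not analysed here. Plots were drawn in Python 3.11.15 with matplotlib 3.10.9. The members, roles, marker lists and tests were chosen with earlier results of these data known. Genes are described in full where they had the highest mean TPM of their role or passed the threshold. Of the wider matrix list, at most 3 called genes per direction are named, and other genes were named after their values were seen.

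The untreated and the IL-4 library of a culture share a culture number in the labels and were taken as a pair. Their deviations from the group means correlated at 0.079 (T32) to 0.378 (T15), and the within-culture correlation was 0.198. The fits with the culture as a block are given where they change a call. P-values of the main fit count both libraries of a culture as separate samples, so they mix spread within and between cultures. The main fit was also run on simulated data, in which 200 of 11204 genes were given a change of 2 log2 units. Among those 200 genes, 78.0% were called for a genotype change, 79.0% for an IL-4 change and 31.5% for an interaction. Quantile normalization moved the median genotype difference of all genes by -0.21 and median-ratio scaling by -0.11 on the log2 scale. Under each, 25 of the 27 genes stayed above 0 and above the median of all genes. The share of genotype calls that were higher in KI was 78.4%, 60.0% and 67.7% without scaling, with quantile normalization and with median-ratio scaling. Protein sequences and 13 of the promoter windows were not used here.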

Additional observations from a re-analysis of the deposited data

How the results depend on the processing

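The count of matrix genes past the threshold for genotype, 3, was 2 with a pseudocount of 0.1 and 2 without the IL-4 library of T43, 3 with a filter at a mean of 3 or with median-ratio scaling, and 4 with the 1-coefficient test and a random replicate block. Among all genes 185 were called in the main fit, and in these fits 125, 70, 179, 192 and 333 in turn. The matrix count was 1 with quantile normalization or the random replicate block alone, 6 with the 1-coefficient test, and 0 without the expression filter, without a variance trend, in the IL-4-treated cultures alone or without both KI T15 and the IL-4 library of T43. The calls among all genes in these fits were 140, 77, 575, 16, 26, 2 and 23 in turn, so both counts moved. Leaving out each culture gave 0 to 5 matrix genes. The count for IL-4, 1, was 2 with the fixed replicate block and 0 without the expression filter, with a filter at a mean of 3, without a variance trend and in WT or KI cultures alone, and leaving out each culture gave 0 to 1. For IL-4 the main fit called 100 of all genes, and the named fits 240, 61, 104, 50, 64 and 45 in turn. Leaving out each culture gave 46 to 143 of all genes. The count for the interaction was 0 in every fit. Fits without the IL-4 library of T43, without it and T15, and the 1-coefficient test with the block were chosen after seeing the data.

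*Sparc* passed in 13 of 19 alternatives (adjusted p 0.00256 to 0.254), *Thbs1* in 7 of 19 (0.0117 to 0.336), *Serpinh1* in 6 of 19 (0.0172 to 0.512) and *Postn* for IL-4 in 10 of 18 (0.000452 to 0.197), each with its direction kept. Signs changed only for differences that were not called. In IL-4-treated cultures alone the genotype difference of *Col1a1* was -0.57. In KI cultures alone the IL-4 difference was -0.32 for *Col1a1*, -0.38 for *Bgn*, -0.22 for *Sparc*, -0.020 for *Thbs1* and -0.49 for *Serpinh1*. In WT cultures alone it was 0.33 for *Col4a1*, and without T15 and the IL-4 library of T43 it was -0.11 for *Serpinh1*. The *Postn* interaction was 0.12 with a pseudocount of 0.1. Leaving out each culture, or T15 together with the IL-4 library of T43, the IL-4 difference ranged from -0.68 to 0.12 for *Col4a1*, -0.076 to 0.35 for *Sparc*, -0.031 to 0.55 for *Thbs1* and -0.17 to 0.51 for *Serpinh1*, the *Postn* genotype difference from -0.79 to 0.52, and the interaction from -0.22 to 1.06 for *Fbln5*, -0.65 to 0.40 for *Postn* and -1.13 to 0.022 for *Thbs1*. The cause of these changes was not tested.

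With 3 cultures a genotype, calls of 27 genes rest on few samples, and which cultures shared a litter is not given in the labels, so litter could not be a term. With the culture as a random block, the F-test called *Sparc* alone and the 1-coefficient test called *Serpinh1*, *Sparc*, *Thbs1* and *Tnc*. A level near 0 TPM says little, since the reads behind it are unknown.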
